A study of Arabidopsis thaliana with 12 samples.

Results

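Chitinases are the enzymes with which plants cut chitin, the N-acetylglucosamine polymer of fungal cell walls, and 9 Arabidopsis thaliana genes annotated as chitinases were followed, with PR4, through 12 RNA-seq libraries of seedlings. The 10 genes were picked by identifier: the basic chitinase HCHIB (AT3G12500, also called PR3), the acidic chitinase CHIA (AT5G24090), EP3 (AT3G54420), the class V chitinase ChiC (AT4G19810), CHI (AT2G43570), AT2G43580, AT2G43590, AT2G43610, AT2G43620, and the chitin-binding protein gene PR4 (AT3G04720). All 10 have a row in both count tables, which hold 21981 and 27612 entries. The 10 genes were chosen with earlier results of these data known.

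RNA came from seedlings 10 days old, which hold several organs, so that fewer cells of a type and less RNA per cell cannot be told apart. In the flg22 experiment, cerk1 mutant and wild type (WT) seedlings received 100 nM flg22, the flagellin peptide that the receptor FLS2 binds, or sterile water as mock, and each of the 4 combinations, cerk1_flg22, WT_flg22, cerk1_mock and WT_mock, is 1 library. In the second experiment, untreated cerk1 plants carried a FLAG-tagged CERK1 transgene under its own promoter, in a form named 3A, 3D or 3E or in the unaltered form. These lines are called CERK1_3A, CERK1_3D, CERK1_3E and CERK1_WT, with 2 libraries each; all of them are in the cerk1 background. The labels give no accession, no cerk1 allele, no time of treatment, no substituted residue and no number of transformants, so that construct and insertion cannot be told apart. Whether the 2 libraries of a line are separate cultures is not stated either; the p-values below rest on the spread of these libraries alone, which may be technical. The title of the cerk1_flg22 library says cerk1 while its genotype field says cerk2-/-; the title was followed.

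Each library of the flg22 experiment held between 18159354 and 22663236 counts, and each library of the lines between 36013439 and 41288819. Levels are in CPM, the count of a gene relative to its library total, scaled by TMM factors within a table; the tables use different gene models, so no level was compared between them. CERK1, the targeted gene, had 119 CPM in cerk1_flg22 against 273 CPM in WT_flg22, and 9.70 CPM in cerk1_mock against 24.9 CPM in WT_mock, so it was lower in both cerk1 libraries and still had counts. As a check of the tissue, all 19 root markers and all 10 leaf markers tested had counts in every library of the flg22 experiment.

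Plant chitinases fall into unrelated glycosyl hydrolase families that act on the same polymer. Besides weakening hyphae, they release chitin fragments, and such fragments are sensed at the plasma membrane by LysM receptor kinases, CERK1 among them. Several chitinases and PR4 are classed as pathogenesis-related (PR) proteins, since pathogens, elicitors and the hormones ethylene and jasmonate raise their transcripts. HCHIB and PR4 are common markers of the ethylene and jasmonate branch.

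CHI, AT2G43580, AT2G43590, AT2G43610 and AT2G43620, 5 of the 10 genes, lie in a tandem array on chromosome 2, all on the minus strand. The array lies between positions 18076166 and 18095093 of TAIR10.1, together with AT2G43600, which is not a member. Another annotated gene, 2921 bases upstream of AT2G43610, lies between it and AT2G43620 and was neither followed nor aligned. In pairwise global alignments, the coding sequences of the array were 60.0% to 81.9% identical over aligned bases, against 52.6% to 65.4% in all other pairs. The closest pairs were AT2G43580 with AT2G43590, at 81.9%, and AT2G43610 with AT2G43620, at 81.3%. The longest run shared by 2 coding sequences was 36 bases, in AT2G43580 and AT2G43590. The aligner's mismatch setting is not given in the sources used here, so this run does not bound how far reads could be confused. It is given in lower case, 5′ to 3′ on the coding strand of chromosome 2, TAIR10.1.
AT2G43580 and AT2G43590 shared run: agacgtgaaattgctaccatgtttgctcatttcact
How the authors' counting treated reads that match more than 1 gene is not given in the sources used here, so values of these pairs are uncertain to that extent.

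The 250 bases before the RefSeq gene start (TAIR10.1) are printed for the 3 members with the largest ratios of flg22 to mock in WT, for PR4, whose WT ratio was nearest to 1, and for AT2G43610, the close copy of AT2G43620. Capitals mark the W-box, the element that WRKY transcription factors bind, searched as TTGACC or TTGACT on both strands. A match on the other strand reads GGTCAA or AGTCAA. AT2G43620 (chr2:18095094-18095343, minus strand) is followed by its 81.3% identical copy AT2G43610 (chr2:18089372-18089621, minus strand). Then come EP3 (chr3:20145655-20145904, plus strand), AT2G43590 (chr2:18082777-18083026, minus strand) and PR4 (chr3:1286761-1287010, minus strand).
AT2G43620: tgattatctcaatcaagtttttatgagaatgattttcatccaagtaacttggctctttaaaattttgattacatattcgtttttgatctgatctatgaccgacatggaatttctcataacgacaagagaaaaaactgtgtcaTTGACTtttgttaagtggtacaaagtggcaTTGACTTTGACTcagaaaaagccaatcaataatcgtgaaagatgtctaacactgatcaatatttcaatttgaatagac
AT2G43610: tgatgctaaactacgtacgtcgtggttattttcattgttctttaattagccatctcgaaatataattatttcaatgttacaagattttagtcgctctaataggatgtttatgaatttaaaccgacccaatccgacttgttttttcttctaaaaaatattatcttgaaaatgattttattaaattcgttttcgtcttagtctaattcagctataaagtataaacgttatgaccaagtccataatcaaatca
EP3: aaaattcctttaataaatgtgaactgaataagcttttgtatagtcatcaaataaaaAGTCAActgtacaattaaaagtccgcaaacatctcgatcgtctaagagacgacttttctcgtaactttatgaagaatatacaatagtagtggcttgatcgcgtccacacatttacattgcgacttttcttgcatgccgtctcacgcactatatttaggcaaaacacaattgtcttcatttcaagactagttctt
AT2G43590: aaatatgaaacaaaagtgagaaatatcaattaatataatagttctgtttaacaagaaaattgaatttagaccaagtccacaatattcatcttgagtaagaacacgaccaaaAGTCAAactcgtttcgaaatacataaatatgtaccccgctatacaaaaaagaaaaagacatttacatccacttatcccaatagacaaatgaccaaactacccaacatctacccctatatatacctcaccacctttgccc
PR4: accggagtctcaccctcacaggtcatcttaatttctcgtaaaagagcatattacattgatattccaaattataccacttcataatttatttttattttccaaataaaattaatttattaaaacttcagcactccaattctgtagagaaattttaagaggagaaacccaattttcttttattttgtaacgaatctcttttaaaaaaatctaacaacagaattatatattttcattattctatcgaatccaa
AT2G43620 held 3 matches, which begin 108, 78 and 72 bases before the start, the last 2 of them directly adjoining. EP3 had 1 match at 194 bases, AT2G43590 had 1 at 139 bases and CHI, not printed, had 1 at 49 bases. The windows of the other 6 members held none. Of 27443 promoter windows of this length in the annotation, 28.4% held a W-box. The GCC-box that ethylene response factors bind, GCCGCC on either strand, was in none of the 10 windows and in 1.87% of all windows. A match is a description of letters, and no match says only that these letters are not in the window.

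The first comparison is that of flg22 with mock in each genotype. Transcripts of AT2G43620 and EP3 were much higher with flg22 in both genotypes, those of AT2G43590, ChiC, CHI and CHIA were higher by smaller ratios, and HCHIB, AT2G43610 and PR4 were above mock in cerk1 by more than counting error but not in WT. With 1 library per group there is no test and no spread between libraries. Ratios are of TMM-scaled CPM, and their 95% exact binomial intervals describe counting error alone and leave that spread out. They may be too narrow even for counting error, because reads that carry no molecular identifier may be copies of the same molecule. In the lines, libraries of the same line differed by more than sampling noise, with a chi-square per degree of freedom of 38.9 to 55.8. Intervals that lie apart therefore do not show that genotypes or treatments differ beyond these libraries.

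AT2G43620, a chitinase family gene of the array, had 885 CPM in cerk1_flg22 against 15.6 CPM in cerk1_mock, and 884 CPM in WT_flg22 against 11.4 CPM in WT_mock. The ratio was 56.6 (95% interval 50.6 to 63.6) in cerk1 and 77.6 (68.1 to 88.9) in WT, where it ranked 46 from the top of 18872 genes. It made up the greater part of the members' summed level with flg22, which was 1470 CPM in cerk1_flg22 against 196 CPM in cerk1_mock, and 1353 CPM in WT_flg22 against 246 CPM in WT_mock. EP3, a class IV chitinase, had 109 CPM in cerk1_flg22 against 2.81 CPM in cerk1_mock, and 102 CPM in WT_flg22 against 6.91 CPM in WT_mock. Its ratio was 38.6 (29.6 to 51.2) in cerk1 and 14.8 (12.4 to 17.7) in WT, rank 349 of 18872. On TAIR10.1, EP3 overlaps SRS6 and AT3G54440 on the opposite strand, and the strand setting of the counts is not given in the sources used here. SRS6 had 5.49 CPM in cerk1_flg22 and 7.54 CPM in cerk1_mock, and 4.36 CPM in WT_flg22 and 5.70 CPM in WT_mock. AT3G54440 had 53.3 CPM in cerk1_flg22 and 56.2 CPM in cerk1_mock, and 64.7 CPM in WT_flg22 and 76.5 CPM in WT_mock. Neither neighbour was higher with flg22.

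AT2G43590 had 123 CPM in cerk1_flg22 against 35.8 CPM in cerk1_mock, and 160 CPM in WT_flg22 against 41.8 CPM in WT_mock. Its ratios were alike, 3.43 (3.16 to 3.74) in cerk1 and 3.83 (3.55 to 4.14) in WT. Its near copy AT2G43580 had 4 counts in cerk1_flg22 and 4 in WT_flg22, and 0 in both mock libraries. A count of 0 allows up to 3 counts, or 0.151 CPM in either mock library, so no ratio is given, and this gene did not pass the CPM minimum of 1 that the other 9 members passed.

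ChiC, a chitinase of class V, had 38.5 CPM in cerk1_flg22 against 5.28 CPM in cerk1_mock, and 36.5 CPM in WT_flg22 against 14.3 CPM in WT_mock. The ratio was 7.30 (5.94 to 9.04) in cerk1 and 2.55 (2.22 to 2.93) in WT. CHI had 13.4 CPM in cerk1_flg22 against 2.26 CPM in cerk1_mock, and 6.46 CPM in WT_flg22 against 2.07 CPM in WT_mock. Both were therefore higher with flg22 in both genotypes, CHI by 5.92 (4.30 to 8.31) in cerk1 and 3.13 (2.18 to 4.56) in WT. CHIA, the acidic class III enzyme, had 8.20 CPM in cerk1_flg22 against 0.653 CPM in cerk1_mock, a ratio of 12.6 (7.14 to 24.1) that rests on 13 counts in cerk1_mock. In WT it had 6.01 CPM in WT_flg22 against 2.52 CPM in WT_mock, a ratio of 2.38 (1.70 to 3.39).

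The remaining 3 members were not higher with flg22 in WT. PR4, the hevein-like chitin-binding protein, had 240 CPM in cerk1_flg22 and 115 CPM in cerk1_mock, against 116 CPM in WT_flg22 and 113 CPM in WT_mock. The cerk1_flg22 library thus stood apart from the other 3, with ratios of 2.08 (1.98 to 2.19) in cerk1 and 1.02 (0.965 to 1.08) in WT; the WT ratio was 0.844 when library totals replaced TMM. HCHIB had 16.0 CPM in cerk1_flg22 against 8.90 CPM in cerk1_mock, a ratio of 1.80 (1.49 to 2.17), and 17.3 CPM in WT_flg22 against 19.01 CPM in WT_mock, a ratio of 0.909 (0.783 to 1.05). For HCHIB the low library was cerk1_mock. HCHIB overlaps AT3G12502 on the opposite strand, which was not analysed here. AT2G43610 had 37.2 CPM in cerk1_flg22 against 9.85 CPM in cerk1_mock, a ratio of 3.78 (3.23 to 4.45), and 23.6 CPM in WT_flg22 against 34.8 CPM in WT_mock, a ratio of 0.680 (0.603 to 0.765). Although 81.3% identical in coding sequence to AT2G43620, it was thus lower with flg22 in WT where AT2G43620 was higher.

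**Figure D1:**
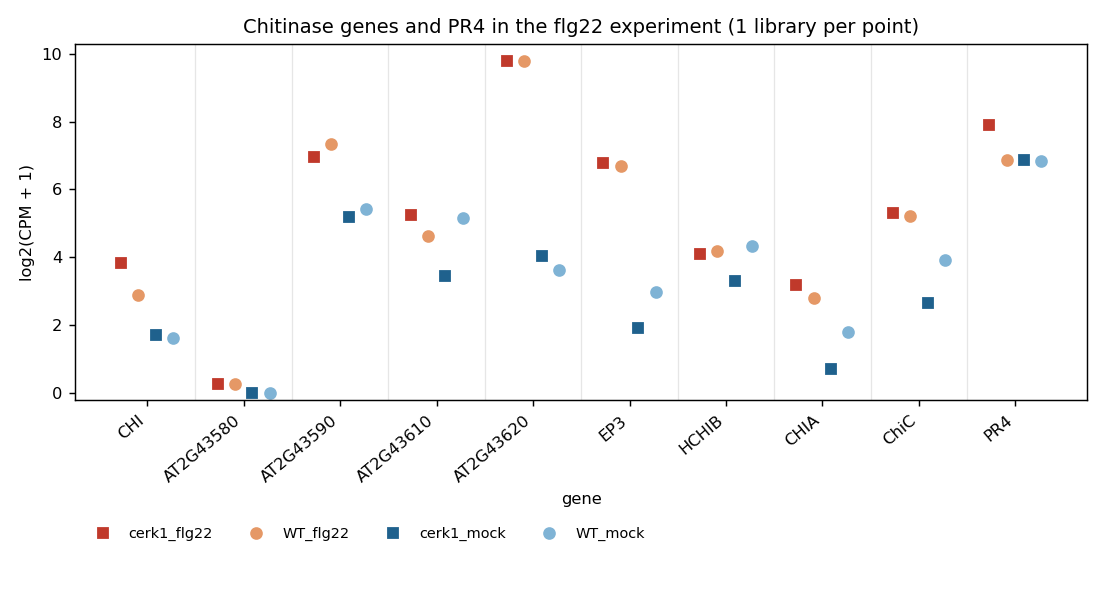
Levels of the 10 members in the flg22 experiment, as log2(CPM + 1) with 1 library per point; squares are cerk1, circles are WT, and the warm colours are flg22. AT2G43620 and EP3 show the widest gap between flg22 and mock, and PR4 has only its cerk1_flg22 point apart.

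Counted on CPM + 1 with a threshold of 2-fold, 8 of the 9 members that passed the minimum were higher with flg22 in cerk1, where 15.2% of all 18872 genes were, and 5 of 9 in WT, where 13.2% were. At 4-fold the counts were 5 in cerk1, with 6.82% of all genes, and 2 in WT, with 6.28%. No member was 2-fold lower in either genotype, where 5.38% of all genes were lower in cerk1 and 5.79% in WT. The median log2 ratio of the 9 was 2.14 in cerk1 and 1.28 in WT, beside -0.01 and -0.03 over all genes. The counts describe these libraries and are no test. Members and lists were chosen with earlier results of these data known. Shares of all genes, here and below, therefore cannot show that members or listed genes respond more often than others.

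Per kilobase of stated gene length, the order of levels differed between treatments. In WT_flg22, AT2G43620 led with 854 CPM per kilobase, before AT2G43590 with 149, PR4 with 138, EP3 with 70.9, ChiC with 26.9, AT2G43610 with 21.4, HCHIB with 15.3, CHI with 6.29 and CHIA with 5.39. In WT_mock, PR4 led with 135 CPM per kilobase, before AT2G43590 with 39.0, AT2G43610 with 31.5, HCHIB with 16.9, AT2G43620 with 10.998, ChiC with 10.6, EP3 with 4.80, CHIA with 2.26 and CHI with 2.01. AT2G43620 and ChiC in WT_mock were separated by little, and 1 library gives no spread to set against it. AT2G43580 came last in both libraries. The places of EP3, ChiC and CHIA hold only for the lengths stated in this table, which differ from those in the lines.

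**Figure D2:**
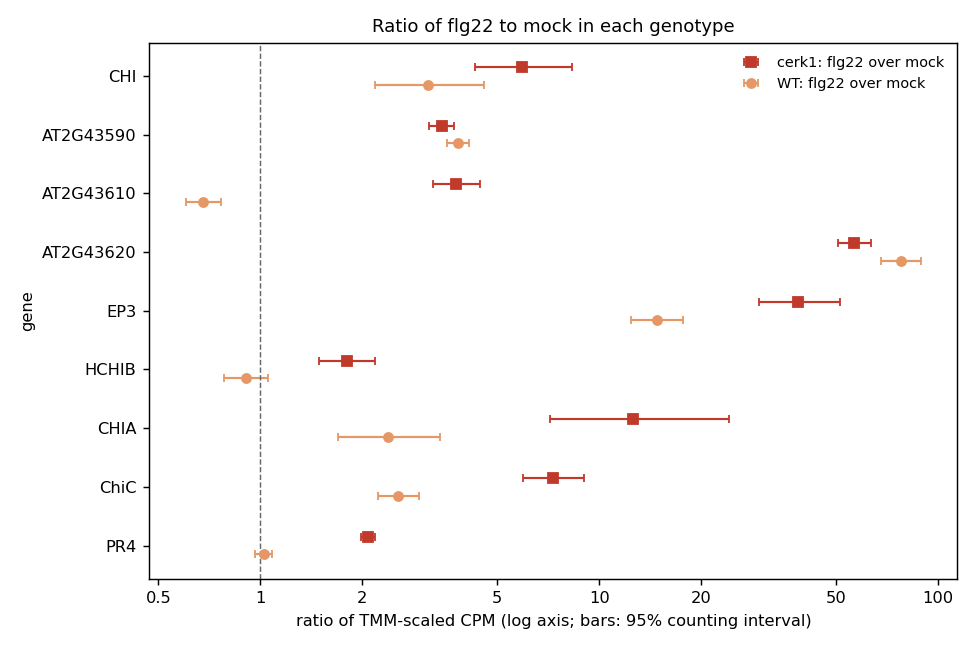
Ratio of flg22 to mock for the 9 members that passed the CPM minimum, on a log axis, with cerk1 (squares) above WT (circles) and bars giving the 95% counting interval. The cerk1 interval lies wholly to the right of the WT interval for EP3, ChiC, CHIA, HCHIB, AT2G43610 and PR4, and to its left for AT2G43620. The intervals leave out the spread between libraries.

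The next comparison is that of cerk1 with WT under the same treatment. Without flg22, 5 of the 9 members were at least 2-fold lower in cerk1_mock on CPM + 1, where 4.01% of all genes were, and none was 4-fold lower, where 0.54% were, or 2-fold higher, where 0.302% were. The 5 were AT2G43610, CHIA, ChiC, EP3 and HCHIB; with 5 CPM added in place of 1, only 1 of the 9 was 2-fold lower. AT2G43610 had 0.283 of the WT_mock level (0.240 to 0.332), CHIA 0.259 (0.129 to 0.484), ChiC 0.369 (0.292 to 0.463), EP3 0.407 (0.293 to 0.560) and HCHIB 0.468 (0.389 to 0.561). AT2G43590, at 0.855 (0.773 to 0.946), PR4, at 1.02 (0.962 to 1.08), and CHI, at 1.09 (0.701 to 1.71), were near the WT_mock level, and AT2G43620 was higher in cerk1_mock, at 1.37 (1.15 to 1.64).

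Root markers moved with this difference. The summed level of 19 root marker genes was 79.9 CPM in cerk1_mock against 225 CPM in WT_mock, with 10 of 19 lower by 2-fold, 5 of them by 4-fold, and none at 0. The sum of 10 leaf markers was 55612 CPM in cerk1_mock and 53995 CPM in WT_mock, with none past 2-fold. With flg22 the root marker sums were 123 CPM in cerk1_flg22 and 146 CPM in WT_flg22. The part of root RNA in the members' levels was not tested. Against flg22 the root sums differed in direction by genotype, 123 CPM in cerk1_flg22 over 79.9 CPM in cerk1_mock and 146 CPM in WT_flg22 under 225 CPM in WT_mock.

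With flg22, the levels in cerk1 and WT lay closer together for most members. PR4 had 2.07 times its WT_flg22 level in cerk1_flg22 (1.97 to 2.18) and was the only 1 of 9 past 2-fold higher on CPM + 1, where 0.641% of all genes were; none was 2-fold lower, where 0.97% were. CHI was at the same ratio of CPM, 2.07 (1.67 to 2.58), but fell short of 2-fold once 1 CPM was added. AT2G43610 stood at 1.58 (1.40 to 1.77) and CHIA at 1.37 (1.07 to 1.74). EP3 at 1.06 (1.00 to 1.13), ChiC at 1.06 (0.953 to 1.17), AT2G43620 at 1.00 (0.980 to 1.02) and HCHIB at 0.926 (0.793 to 1.08) were within or at the edge of counting error of the WT_flg22 level, and scaling by library totals put AT2G43620 at 1.10 and HCHIB at 1.02. AT2G43590 was lower in cerk1_flg22, at 0.766 (0.726 to 0.807).

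**Figure D3:**
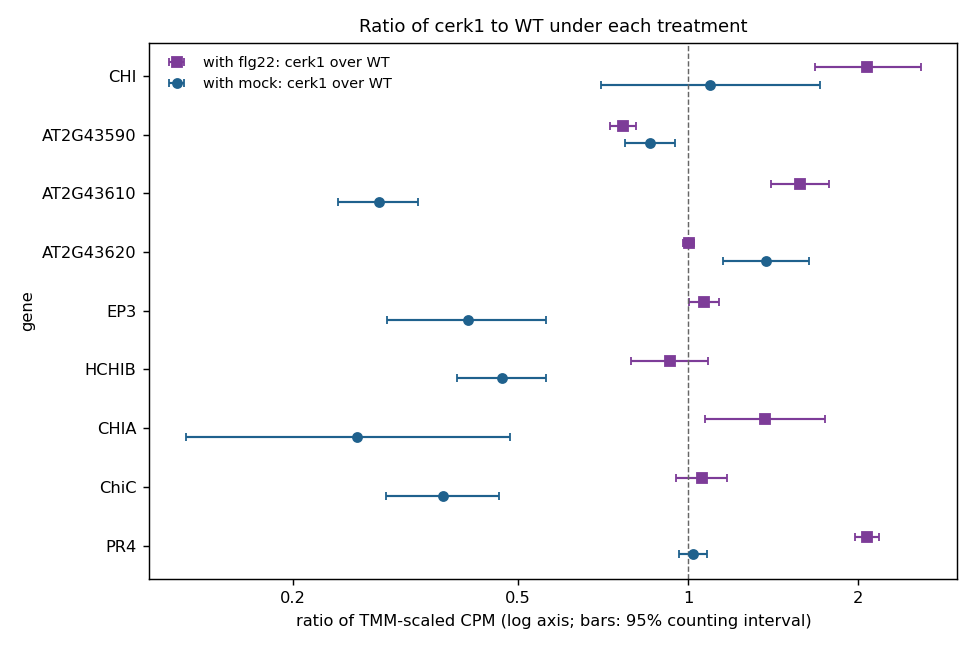
Ratio of cerk1 to WT with flg22 (squares, above) and with mock (circles), on a log axis with 95% counting intervals, for the 9 members that passed the CPM minimum. The mock ratios of AT2G43610, EP3, HCHIB, CHIA and ChiC lie below 0.5 while their flg22 ratios lie near or above 1; PR4 and CHI show the reverse arrangement, near 1 with mock and 2.07 with flg22.

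The response to flg22, as a log2 ratio of CPM + 1, was larger in cerk1 than in WT by at least 2-fold for 5 of 9 members, where 4.04% of all genes were, and by 4-fold for 1 of 9, AT2G43610, beside 0.593%. It was smaller by 2-fold for none, beside 0.689%. With 5 CPM added, 1 of 9 members, in place of 5, had a 2-fold larger response in cerk1. The difference, cerk1 minus WT, was 2.36 for AT2G43610, 1.48 for CHIA, 1.36 for ChiC, 1.14 for EP3, 1.02 for PR4, 0.91 for HCHIB, 0.86 for CHI, -0.16 for AT2G43590 and -0.42 for AT2G43620. For AT2G43610, CHIA, ChiC and EP3 the cerk1_mock level was the low value; for PR4 the cerk1_flg22 level was the high value. The root markers, too, had a median difference of 0.89, with 6 of 19 past 2-fold. Set against WT_mock in place of cerk1_mock, a choice made after the data were seen, cerk1_flg22 had ratios of 77.7 for AT2G43620, 15.7 for EP3, 6.48 for CHI, 3.26 for CHIA, 2.94 for AT2G43590, 2.69 for ChiC, 2.12 for PR4, 1.07 for AT2G43610 and 0.842 for HCHIB. This comparison shares the WT_mock library with that of flg22 in WT.

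Genes around the members were taken from lists of known function. Of all 18872 genes, 15.2% were 2-fold higher with flg22 in cerk1 and 13.2% in WT. Of 15 other chitinase family genes, 8 passed the CPM minimum, and 5 of these were 2-fold higher with flg22 in cerk1 and 3 in WT. The widest differences among them were those of AT4G01700, with a log2 ratio of 5.85 in cerk1 and 5.001 in WT, and AT1G02360, with 4.88 and 4.13; CTL2, a chitinase-like gene, had 1.30 in cerk1 and -0.12 in WT. Of 12 genes of chitin perception, 11 passed, and 6 were higher in each genotype, among them the chitin receptor kinase gene LYK5, with 3.76 in cerk1 and 3.60 in WT, and LYK4, with 3.79 and 3.52. LYM1, which encodes a peptidoglycan-binding LysM protein, had -0.47 in cerk1 and -0.64 in WT. At least 2-fold lower with flg22 were 1 of the 11 in cerk1 and 2 in WT, named here after their values were seen: LYK3, with -1.60 in cerk1 and -1.40 in WT, and LYM3, with -0.93 in cerk1 and -1.12 in WT.

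Of 12 genes for other PR proteins, glucanases and defensins, 11 passed, and 10 were 2-fold higher with flg22 in cerk1 and 2 in WT. PR5, a thaumatin-like protein gene, had a log2 ratio of 1.03 in cerk1 and 1.44 in WT, the glucanase gene BG3 had 1.46 and 1.38, and the defensin gene PDF1.2c had 2.88 in cerk1 and -0.11 in WT. The PDF1.2c values rest on 170 counts in cerk1_flg22 against 6 in cerk1_mock, and on 5 in WT_flg22 against 7 in WT_mock. In both WT libraries PDF1.2c was below the CPM minimum. Of these 11 genes, 5 were 2-fold higher in cerk1_flg22 than in WT_flg22, as PR4 was, and 3 of them 4-fold. These 3 were PR1, BGL2 and PDF1.2c, which reached the CPM minimum in cerk1_flg22 alone. PR1 had 157 counts in cerk1_flg22 and 4 in WT_flg22, and BGL2 had 149 and 1. The filter thus kept these 3 only for being high in cerk1_flg22, so their part in the counts for cerk1 and WT is no separate finding. Of all 18872 genes, 0.641% were 2-fold higher and 0.97% 2-fold lower in cerk1_flg22 over WT_flg22, and 17 genes were 4-fold higher. PR5 was the 1 gene of the 11 that was 2-fold lower there, with 13.6 CPM in cerk1_flg22 against 40.7 CPM in WT_flg22, a ratio of 0.335 (0.291 to 0.385). All 14 genes of ethylene synthesis and of ethylene and jasmonate transcription factors passed, and 11 were higher in cerk1 and 10 in WT. ERF6, an ethylene response factor, had 5.20 in cerk1 and 4.26 in WT, and ACS6, an ethylene biosynthesis enzyme, had 3.84 in both, while EIL1 had -0.43 and -0.28. In the root list LRX1 had 0.82 in cerk1 and -1.49 in WT, SHV2 1.12 and -1.39, and MYB36 0.84 and -0.03. In the leaf list PSAD-1 had -0.58 in cerk1 and -0.61 in WT, LHCB2.1 -0.30 and -0.49, and PSBO1 -0.25 and -0.04.

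The complementation lines address whether the form of CERK1 goes with different levels in untreated plants. No member passed the test in any of 6 comparisons between lines, by edgeR's quasi-likelihood test on all 8 libraries with Benjamini-Hochberg adjustment over 21274 genes. All 10 members passed the count filter of this test. The lowest adjusted p of any member was 0.811, for PR4 in CERK1_3D over CERK1_3A. DESeq2 called no member in any of the comparisons either. On simulated data 60% of 2-fold changes were recovered. Those data gave all genes a single spread and had changes only in genes of at least 5 CPM. Recovery in the lines may therefore be lower, and CERK1, past 2-fold in CERK1_3E over CERK1_WT, was not called there. The largest log2 fold change of a member was 0.81, below 2-fold. The lack of calls therefore does not show that the lines are alike. At an unadjusted p under 0.05 there were 2 of 10 members in each of CERK1_3A, CERK1_3D and CERK1_3E over CERK1_WT, 1 in CERK1_3D over CERK1_3A and 0 in the other 2 comparisons, beside 3.07%, 2.87%, 3.37% and 5.78% of all genes in the first 4 and 2.45% and 4.03% in CERK1_3E over CERK1_3A and over CERK1_3D. Over all genes, 0% rose and 0.0047% fell in CERK1_3A over CERK1_WT, 0.0188% and 0.0094% in CERK1_3D, and 0.0047% and 0% in CERK1_3E, at an adjusted p under 0.05 by edgeR. Between the altered forms, 0.0188% rose and 0.0047% fell in CERK1_3D over CERK1_3A, 0.0094% and 0% in CERK1_3E over CERK1_3A, and 0.0094% and 0.0047% in CERK1_3E over CERK1_3D.

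CHI had 40.7 and 33.0 CPM in CERK1_3A, 46.8 and 40.4 CPM in CERK1_3D, and 45.4 and 42.4 CPM in CERK1_3E, against 34.4 and 19.2 CPM in CERK1_WT. Both libraries of CERK1_3D and CERK1_3E lay above both of CERK1_WT, while CERK1_3A overlapped it. The log2 fold change was 0.70 in CERK1_3D over CERK1_WT (SE 0.24) and 0.71 in CERK1_3E over CERK1_WT (SE 0.24), with unadjusted p of 0.0208 and 0.0196 by edgeR's quasi-likelihood test. The CERK1_WT mean of 26.8 ± 10.8 CPM (SD, n = 2) had the widest spread of the 4 lines for this gene. Without CERK1_WT replicate 1 the fold changes were 1.185 in CERK1_3D and 1.195 in CERK1_3E, and without CERK1_WT replicate 2 they were 0.35 in CERK1_3D and 0.35 in CERK1_3E.

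AT2G43620 had 10.9 and 9.75 CPM in CERK1_3A, 12.2 and 8.22 CPM in CERK1_3D, and 8.18 and 9.47 CPM in CERK1_3E, against 7.26 and 4.52 CPM in CERK1_WT. Every library of the 3 altered forms was above both CERK1_WT libraries. The share of all genes with this pattern was not counted, and the 3 comparisons share the CERK1_WT libraries. The log2 fold change of AT2G43620 was 0.81 in CERK1_3A (SE 0.26, unadjusted p = 0.0161 by edgeR) and 0.79 in CERK1_3D (SE 0.26, unadjusted p = 0.0174 by edgeR), each over CERK1_WT. In CERK1_3E over CERK1_WT it was 0.58 (SE 0.26, unadjusted p = 0.0597 by edgeR). Without CERK1_WT replicate 2 the values were 0.51 in CERK1_3A, 0.50 in CERK1_3D and 0.28 in CERK1_3E. Without CERK1_WT replicate 1 they were 1.19, 1.18 and 0.97 in the same order, and without CERK1_3D replicate 1 that of CERK1_3D was 0.48.

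PR4 had 190 and 147 CPM in CERK1_3A, 138 and 120 CPM in CERK1_3D, and 158 and 157 CPM in CERK1_3E, against 128 and 112 CPM in CERK1_WT. CERK1_3A and CERK1_3E lay above CERK1_WT, and CERK1_3D overlapped it. The log2 fold change was 0.49 in CERK1_3A over CERK1_WT (SE 0.14, unadjusted p = 0.00753 by edgeR), 0.40 in CERK1_3E over CERK1_WT (SE 0.14, unadjusted p = 0.0207 by edgeR) and -0.38 in CERK1_3D over CERK1_3A (SE 0.14, unadjusted p = 0.0239 by edgeR). Without CERK1_3A replicate 1 the fold change was 0.29 in CERK1_3A over CERK1_WT and -0.18 in CERK1_3D over CERK1_3A, and without CERK1_3A replicate 2 it was 0.67 and -0.56. Leaving out 1 library at a time gave 0.30 to 0.50 in CERK1_3E over CERK1_WT.

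The other 7 members had no unadjusted p under 0.05 in any comparison of lines by edgeR. AT2G43590 averaged 63.5 ± 3.54 CPM in CERK1_3A, 49.2 ± 26.5 CPM in CERK1_3D and 50.5 ± 7.02 CPM in CERK1_3E, against 59.0 ± 2.59 CPM in CERK1_WT (SD, n = 2 each). Its CERK1_3A libraries lay above those of CERK1_WT and its CERK1_3E libraries below them, with log2 fold changes of 0.11 (SE 0.31) and -0.22 (SE 0.31). The lower CERK1_3A library had 61.0 CPM and the higher CERK1_WT library 60.8 CPM. The wide error of CERK1_3D came from libraries at 67.9 and 30.4 CPM. HCHIB averaged 48.6 ± 3.08, 49.0 ± 15.9 and 43.1 ± 6.98 CPM in CERK1_3A, CERK1_3D and CERK1_3E, against 45.7 ± 7.20 CPM in CERK1_WT. AT2G43610 averaged 44.2 ± 3.35, 44.0 ± 14.99 and 41.7 ± 10.6 CPM in the same order, against 41.2 ± 2.98 CPM in CERK1_WT. Both genes thus had their widest spread in CERK1_3D as well.

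EP3 averaged 12.4 ± 1.65 CPM in CERK1_3A, 13.6 ± 0.523 CPM in CERK1_3D and 13.4 ± 4.12 CPM in CERK1_3E, against 12.2 ± 0.145 CPM in CERK1_WT (SD, n = 2 each). ChiC averaged 17.3 ± 1.38, 19.1 ± 1.79 and 18.2 ± 1.59 CPM in CERK1_3A, CERK1_3D and CERK1_3E, against 17.9 ± 4.16 CPM in CERK1_WT. CHIA averaged 11.96 ± 3.17, 9.53 ± 2.75 and 10.4 ± 3.19 CPM in the same order, against 11.7 ± 2.03 CPM in CERK1_WT. Both CERK1_3D libraries of EP3, at 14.0 and 13.2 CPM, lay above both CERK1_WT libraries, at 12.3 and 12.1 CPM, with a log2 fold change of 0.16 (SE 0.20); the other altered lines overlapped CERK1_WT for EP3, and all of them did for ChiC and CHIA. AT2G43580 had 3 to 11 counts in every library, and its CERK1_3A and CERK1_3E libraries did not overlap those of CERK1_WT at this depth. For CERK1_3A the gap was 0.1657 CPM in replicate 2 over 0.1655 CPM in CERK1_WT replicate 1. These are 6 and 7 counts, so the gap rests on the scaling.

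**Figure D4:**
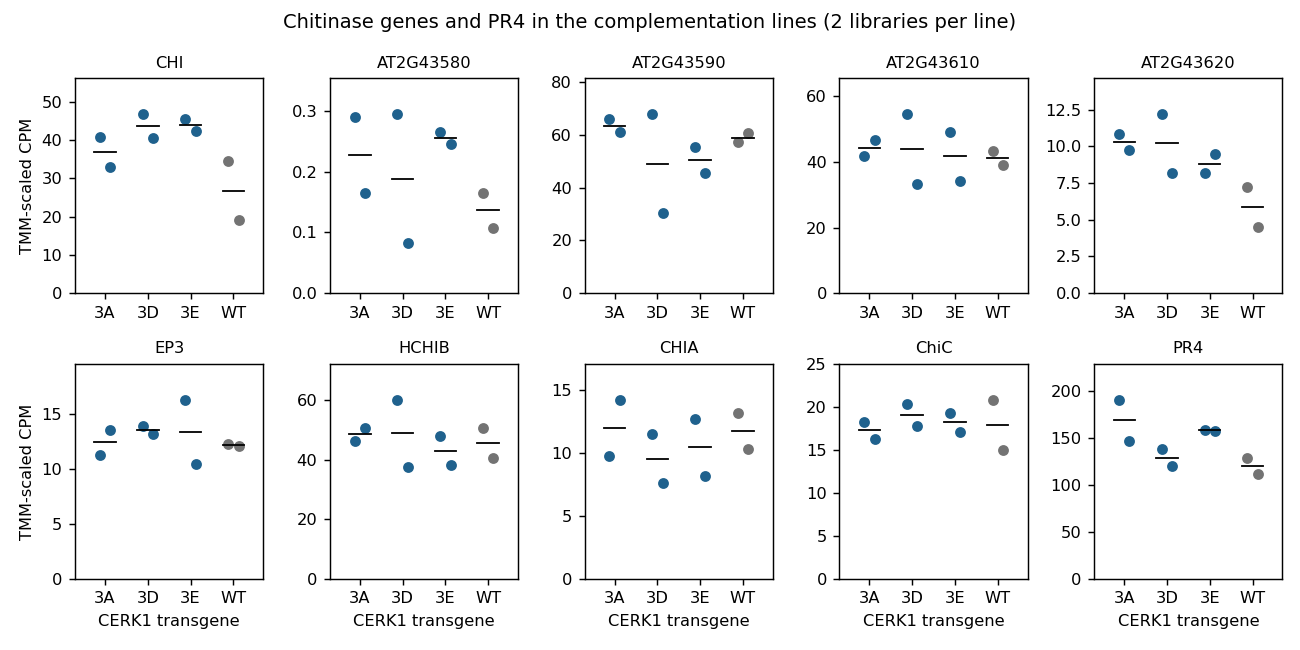
TMM-scaled CPM of each member in the 8 libraries of the lines, with 1 panel per gene, points for libraries and a bar for the mean of 2; every y axis starts at 0. AT2G43620 has all 6 points of the altered forms above both CERK1_WT points, and in CERK1_3D the left point, replicate 1, is the higher in all 10 panels. The share of all genes with the AT2G43620 pattern was not counted.

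In 3 of the 4 lines nearly all members were higher in the same library of the pair. Replicate 1 was higher than replicate 2 for 6 of 10 members in CERK1_3A, 10 in CERK1_3D, 9 in CERK1_3E and 9 in CERK1_WT, beside 49.0% to 50.9% of all genes. The median log2 difference of the members, replicate 1 minus replicate 2, was 0.13 in CERK1_3A, 0.39 in CERK1_3D, 0.22 in CERK1_3E and 0.26 in CERK1_WT. In CERK1_3D the root marker sums were 222 CPM in replicate 1 and 146 CPM in replicate 2, and replicate 1 was also the higher in CERK1_3E, at 182 and 150 CPM, and in CERK1_WT, at 191 and 180 CPM, but not in CERK1_3A, at 164 and 169 CPM. Leaf marker sums were lower in replicate 1 in all 4 lines, for example 45275 CPM in replicate 1 and 59840 CPM in replicate 2 of CERK1_3D, and 44574 and 56764 CPM in CERK1_WT. The part of organ make-up in these differences was not tested.

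Groups of 2 libraries that do not overlap are common at this size. In CERK1_3A over CERK1_WT, 4 of 10 members did not overlap, where 32.2% of all genes did not. Among the 4, AT2G43580 and AT2G43590 were apart only by the small gaps given above. The number not overlapping CERK1_WT was 3 of 10 in CERK1_3D, beside 25.3%, and 5 of 10 in CERK1_3E, beside 32.9%. It was 1 of 10 in CERK1_3D over CERK1_3A, beside 32%, 3 of 10 in CERK1_3E over CERK1_3A, beside 32.3%, and 1 of 10 in CERK1_3E over CERK1_3D, beside 30.1%. The median log2 fold change of the 10 was 0.10 in CERK1_3A, 0.10 in CERK1_3D and 0.08 in CERK1_3E, beside 0.00 over all genes in each. These 3 comparisons share the CERK1_WT libraries.

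Among the lists, no gene passed the test in any comparison over CERK1_WT but CERK1 itself, which rose in CERK1_3D. CERK1, whose counts can include the transgene, had 80.1 and 73.3 CPM in CERK1_3A, 115 and 121 CPM in CERK1_3D and 114 and 129 CPM in CERK1_3E, against 61.1 and 52.5 CPM in CERK1_WT. It was thus about as high in CERK1_3E as in CERK1_3D, with log2 fold changes over CERK1_WT of 1.10 (SE 0.11, adjusted p = 0.0592 by edgeR) in CERK1_3E and 1.05 (SE 0.11, adjusted p = 0.0451 by edgeR) in CERK1_3D. In CERK1_3A it was 0.43 (SE 0.11). The level of CERK1 differed between these lines, in which form and insertion cannot be told apart. The part of the CERK1 level in the members' levels was not tested. Of 12 genes for other PR proteins, glucanases and defensins, 10 were tested, with a median log2 fold change of 0.93 in CERK1_3A, 1.42 in CERK1_3D and 1.59 in CERK1_3E over CERK1_WT. Of these 10, 4, 6 and 7 had an unadjusted p under 0.05 by edgeR in that order of lines, beside 3.07%, 2.87% and 3.37% of all genes. None of the 10 passed the adjusted threshold. All of these comparisons share the CERK1_WT libraries, so the counts are not independent of each other. The 9 tested genes of other chitinases had medians of -0.05, 0.11 and -0.03, and the 14 of the ethylene list -0.05, 0.53 and 0.56.

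Per kilobase, PR4 was the highest member in the lines, with means of 201 CPM per kilobase in CERK1_3A, 154 in CERK1_3D, 189 in CERK1_3E and 143 in CERK1_WT, above every library of the 6 other members whose stated length is the same in both tables. AT2G43590, HCHIB, AT2G43610 and CHI followed, with CERK1_WT means of 54.9, 40.5, 37.4 and 26.1 CPM per kilobase, and their libraries overlapped over the 8. AT2G43620, with 5.68, lay below them in every library, and AT2G43580 was lowest, at 0.140 CPM per kilobase in CERK1_WT. EP3, ChiC and CHIA are given no place, because their stated lengths differ between the tables and would reorder them.

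The members did not all vary together over the 8 libraries of the lines. As a description over points that share lines, replicate numbers and depth, HCHIB and AT2G43610 had a Pearson correlation of 0.944 on log2(CPM + 1). Among 15207 genes with a mean of at least 5 CPM, the gene most like HCHIB was mtACP2 (0.979), that most like CHIA was AT5G15980 (0.989), that most like EP3 was RHD1 (0.936) and that most like ChiC was ATRPAC42 (0.960). For the array the most like were AT1G08050 for CHI (0.959), TGA10 for AT2G43590 (0.984), CB5-E for AT2G43610 (0.993) and AT2G39270 for AT2G43620 (0.945). GRP-3 was the most like PR4 (0.962). Correlations of this size are picked as the highest of many candidates over 8 libraries.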

How the data were processed

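The files the authors deposited hold whole-number counts per gene with no normalization and a stated gene length. Per the submitters' processing notes the build was TAIR10; which aligner and counter were used, and with which strand setting or filters, is not given in the sources used here. All 12 sample columns were used. Groups came from the sample titles. In the flg22 experiment, with 1 library per group, counts were scaled with TMM (edgeR 4.0.16, R 4.3.3) to CPM; fold counts used CPM + 1 at 2-fold and 4-fold over 18872 genes with at least 1 CPM in at least 1 library. The lines were tested two-sided with edgeR's quasi-likelihood test on all 8 libraries, group as the only term, filterByExpr, and Benjamini-Hochberg adjustment at 0.05; 4 residual degrees of freedom were left, and the common biological coefficient of variation was 0.170. SE is the log2 fold change over the square root of the quasi-F. The scripts were tested on simulated data. In simulated CERK1_3D over CERK1_WT, 60% of 50 genes changed 2-fold and 100% of 50 genes changed 4-fold were recovered. The changed genes had at least 5 CPM and all genes shared a single spread, so recovery in the lines may be lower. DESeq2 1.42.0, other scalings, filters and pseudocounts, a replicate block and leaving out each library were alternatives.

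The stated length was equal for 52.1% of the 21773 annotated genes that the tables share. EP3 had 1439 bases in the flg22 table and 876 in the lines, ChiC 1357 and 3179, and CHIA 1114 and 3436. Names, promoter windows and coding sequences came from RefSeq on TAIR10.1 (alignment with Biopython 1.88); all 10 members matched. The 2 libraries of a line differed by more than sampling noise, with a chi-square per degree of freedom of 38.9 to 55.8.

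The members and lists were chosen with earlier results of these data known. The genes named were all members; from each list, the pair with the largest absolute log2 ratio of WT_flg22 over WT_mock and the gene with the smallest; and, for each member with at least 5 CPM on average in the lines, the gene most correlated with it.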

Additional observations from a re-analysis of the deposited data

Results flagged for a closer look

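HCHIB and AT2G43610 moved in opposite directions with flg22 in the 2 genotypes, higher in cerk1 and lower in WT. The log2 response, cerk1 minus WT, differed by 0.91 for HCHIB and by 2.36 for AT2G43610. The difference was not tested, since each combination has 1 library. For HCHIB the WT interval of 0.783 to 1.05 includes a ratio of 1. Over all genes, 11.5% were lower in WT and higher in cerk1 by any amount.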

How the results depend on the processing

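No member was called in any comparison between lines under any alternative run. The scaling changed on which side of 1 a total of 4 member ratios lay: library totals did so for PR4 in WT_flg22 over WT_mock and HCHIB in cerk1_flg22 over WT_flg22, and DESeq2 size factors for AT2G43620 and AT2G43580 in cerk1_flg22 over WT_flg22. The counts of genes called over all genes were small and moved. In CERK1_3A over CERK1_WT the count was 1, with 2 without the filter, 14 by DESeq2, 2 with a replicate block and 5 on only the 4 libraries compared. In CERK1_3D over CERK1_WT it was 6, with 2 at a mean of at least 5 CPM and 26 by DESeq2. In CERK1_3E over CERK1_WT it was 1, with 3 without the filter, 39 by DESeq2 and 4 on only the 4 libraries. In CERK1_3D over CERK1_3A it was 5, with 77 by DESeq2 and 3 with the block. In CERK1_3E over CERK1_3A it was 2, with 5 without the filter, 29 by DESeq2, 1 with the block and 8 on only the 4 libraries. In CERK1_3E over CERK1_3D it was 3, with 42 by DESeq2 and 5 on only the 4 libraries. Leaving out 1 library at a time gave 2 to 13, 3 to 12, 1 to 9, 2 to 16, 2 to 15 and 3 to 11 in the same order of comparisons, with a lone library assumed to vary like the other lines. The cause was not tested. The correlations of replicate differences between lines ran from -0.00134 to 0.228, with 4 of 6 over 0.1, among them all those between CERK1_3D, CERK1_3E and CERK1_WT. Since the other 2 were not, the numbers were not taken to pair the libraries.

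In the flg22 experiment the pseudocount moved counts past 4-fold. With CPM + 5 the count for cerk1_flg22 over cerk1_mock was 862 in place of 1375. For cerk1_mock over WT_mock it was 351 with CPM + 0.1 and 31 with CPM + 5, in place of 108; for cerk1_flg22 over WT_flg22 it was 131 and 3, in place of 24; for the difference of responses it was 407 and 24, in place of 115. Members 2-fold lower in cerk1_mock were 1 in place of 5 with CPM + 5, and members with a 2-fold larger response in cerk1 were 1 in place of 5. Members 2-fold higher in cerk1_flg22 over WT_flg22 were 2 in place of 1 with CPM + 0.1 and with library totals. Of the genes past 4-fold in that comparison, 70.8% were higher by TMM and 91.7% by library totals. Library totals moved the median log2 ratio of all genes to -0.28 for WT_flg22 over WT_mock, -0.17 for cerk1_flg22 over cerk1_mock and 0.12 for cerk1_flg22 over WT_flg22, so changes are relative to that shift. AT2G43580 had too few counts for any direction.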
